A study of Mus musculus with 15 samples.

Results

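The genes described here were PD-1, its ligands and related immune checkpoints, 10 genes listed by symbol (Pdcd1, Cd274, Pdcd1lg2, Cd80, Cd86, Havcr2, Vsir, Cd276, Btla and Lgals9) of the 46078 genes in the deposited count table. All 10 were present in the table and all 10 had enough counts to be tested in each comparison. The libraries came from podocyte fractions of male C57BL/6J mice, that is, from the cells of digested kidney cortex that were retained on a magnetic column by antibodies against nephrin, a protein of the podocyte slit diaphragm. Young mice (n = 5 libraries) were 4 months old and uninjected. Aged mice were 21 months old and received weekly intraperitoneal injections for 8 weeks, either of the isotype control antibody (2A3, called IgG2a, n = 4) or of a rat antibody that neutralizes PD-1 (RMP1-14, called aPD1ab, n = 4), each at 12 mg/kg. Sample titles of the aPD1ab group give 47 days. The labels list 5 samples in each group, and 2 of 15 columns carried no number that ties them to a group and were not used. Since the young mice were uninjected, age and injection of an antibody cannot be told apart when aged mice are compared with young mice.

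PD-1 is an inhibitory receptor of activated lymphocytes that, once bound by PD-L1 (Cd274) or PD-L2 (Pdcd1lg2), recruits phosphatases that dampen signaling through the antigen receptor and CD28. PD-L1 is found on many hematopoietic and epithelial cells and is inducible by interferon, whereas PD-L2 is largely restricted to dendritic cells and macrophages. The other genes belong to the same regulatory layer: Cd80 and Cd86 encode the B7 ligands of CD28 and CTLA-4, Havcr2 encodes TIM-3 and Lgals9 its ligand galectin-9, Vsir encodes VISTA, which is abundant on myeloid cells, Cd276 encodes B7-H3, and Btla encodes an inhibitory receptor of B and T cells.

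The library totals were 21962193 to 27685122 counts in young mice, 20500755 to 32717100 with IgG2a and 19912969 to 31493051 with aPD1ab. Values are CPM (read counts scaled to library size by TMM). Totals cover counting error only. A library in the IgG2a group, replicate 1, stood apart from the other 3: on the first principal component, which held 40.7% of the variance, it lay at -16.37 and the others between 71.59 and 84.19. Counts of called genes among the 10 and in the pathway lists are therefore given with and without it where they rest on the IgG2a group, and the value of a gene without it is given where a call changes. In the aPD1ab group, replicate 2 also lay apart on the first component, at -64.93 against -13.93 to 10.93 for the others. Of all libraries it held the lowest summed podocyte markers (276 CPM) and the highest summed proximal tubule markers (14884 CPM). Leaving out aPD1ab replicate 2 enters only the ranges over alternatives. The nephrin-selected fraction held podocyte transcripts (10 of 10 markers above 3 counts in at least 1 library, with 276 to 1435 CPM summed), and markers of proximal tubule (954 to 14884 CPM summed) and macrophages (1428 to 6857 CPM summed) were counted in every library as well. In bulk samples of this kind, fewer cells of a type and less RNA per cell cannot be told apart.

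Levels of the 10 genes spanned a wide range. Per kilobase of exon, the mean over 13 libraries was 34.1 CPM for Vsir, 18.3 for Lgals9, 15.0 for Cd86, 11.2 for Havcr2, 6.77 for Cd274, 5.39 for Btla, 1.48 for Cd80, 1.37 for Cd276, 0.377 for Pdcd1lg2 and 0.280 for Pdcd1. The myeloid checkpoint Vsir was the most abundant of the 10 and the PD-1 transcript the least. Cd276 exceeded Pdcd1lg2 per kilobase in 13 of 13 libraries, with a median ratio of 4.21. Vsir exceeded Lgals9, Cd86 exceeded Havcr2 and Havcr2 exceeded Cd274 in 12 of 13 libraries each. Other neighbours in this order were less clearly separated: Btla was above Cd80 in 11 libraries, Lgals9 above Cd86 in 10, and Cd274 above Btla, Cd80 above Cd276 and Pdcd1lg2 above Pdcd1 in 9 each. Per kilobase, Cd274 exceeded Pdcd1lg2 by a median of 28.6-fold in young mice (range 11.6 to 83.4), 23.4-fold with IgG2a (8.14 to 52.3) and 15.9-fold with aPD1ab (8.08 to 26.2), with ranges that overlapped. Cd86 exceeded Cd80 by a median of 9.004-fold, 11.8-fold and 7.72-fold in the same groups, again with overlapping ranges.

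Cd274 and Pdcd1lg2 are neighbours on the same strand of chromosome 19 (GRCm38), at 29367455 to 29388095 and 29410919 to 29471161, with 22823 bases between them. Cd86 (chromosome 16, 36603869 to 36666081), Cd80 (chromosome 16, 38455561 to 38496335) and Btla (chromosome 16, 45224315 to 45257670) share chromosome 16, and Havcr2 (chromosome 11, 46454935 to 46481255) and Lgals9 (chromosome 11, 78962974 to 78984946) share chromosome 11. Promoter windows, from 250 bases before to 50 after the RefSeq start (GRCm38.p6), matched 9 of the 10 genes. They were searched on both strands for letters bound by factors of interferon signaling and of leukocytes: GAAA followed after any 2 bases by GAAA (the ISRE of interferon regulatory factors), GGGA followed after any 2 bases by TTCC (NF-kB) and GAGGAAGT (PU.1, a factor of myeloid and B cells). The ISRE letters occurred in 1 of 9 windows, that of Lgals9, against 3.44% of 32851 promoters. The PU.1 letters occurred in 2, those of Havcr2 and Btla, against 3.20% of promoters. The NF-kB letters, held by 1.47% of promoters, were in none of the 9 windows. No match overlapped another. A match is a description of the letters and not a site in use, and a window without one says nothing on the factor. The windows with a match are shown together with that of Cd274, the more abundant PD-1 ligand. Capitals mark the ISRE letters in Lgals9 (chr11:78984875-78985174, minus strand), the reverse complement of the form given above, and the PU.1 letters in Havcr2 (chr11:46454681-46454980, plus strand) and Btla (chr16:45224087-45224386, plus strand). Cd274 (chr19:29367188-29367487, plus strand) has none.
Cd274: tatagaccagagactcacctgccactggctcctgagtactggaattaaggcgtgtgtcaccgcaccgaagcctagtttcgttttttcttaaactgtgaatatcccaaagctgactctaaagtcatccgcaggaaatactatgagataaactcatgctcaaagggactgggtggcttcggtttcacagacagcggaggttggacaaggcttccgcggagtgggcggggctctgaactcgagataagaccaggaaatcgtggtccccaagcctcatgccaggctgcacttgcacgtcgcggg
Havcr2: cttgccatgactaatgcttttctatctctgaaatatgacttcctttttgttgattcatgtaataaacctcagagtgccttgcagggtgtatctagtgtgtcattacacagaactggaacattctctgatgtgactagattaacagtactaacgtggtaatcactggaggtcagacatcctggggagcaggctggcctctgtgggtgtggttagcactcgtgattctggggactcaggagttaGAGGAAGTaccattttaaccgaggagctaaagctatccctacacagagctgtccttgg
Lgals9: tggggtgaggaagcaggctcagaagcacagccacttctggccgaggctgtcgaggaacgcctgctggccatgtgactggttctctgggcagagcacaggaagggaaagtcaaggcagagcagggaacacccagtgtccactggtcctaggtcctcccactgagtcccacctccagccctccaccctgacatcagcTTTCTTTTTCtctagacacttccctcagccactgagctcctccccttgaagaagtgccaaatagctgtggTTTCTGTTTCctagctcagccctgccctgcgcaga
Btla: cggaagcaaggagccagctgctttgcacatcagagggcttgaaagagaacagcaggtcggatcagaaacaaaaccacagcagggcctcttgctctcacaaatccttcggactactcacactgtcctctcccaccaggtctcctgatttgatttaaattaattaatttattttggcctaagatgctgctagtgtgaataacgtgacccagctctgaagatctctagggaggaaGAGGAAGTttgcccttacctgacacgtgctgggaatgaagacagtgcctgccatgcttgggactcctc

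The question of how age alters these genes was addressed by comparing aged IgG2a-injected with young mice. In the aged podocyte fraction, Cd86, Havcr2 and Cd274 were higher, each at close to a 2-fold change, and 6 further genes had positive log2 fold changes without passing the test, so that 9 of 10 were positive where 53.7% of all genes were. Of the 10 genes, 3 had an edgeR adjusted p under 0.05, where 17.4% of 15953 genes did and 9.05% did so in the upward direction. The median log2 fold change was 0.96 over the 10 genes and 0.038 over all genes tested. Without IgG2a replicate 1, 7 of the 10 genes were called higher, where 45.6% of all genes were called and 22.1% were called higher. When any other library was left out instead, 0 or 1 of the 10 genes was called. Over all genes, 553 to 1504 were called in those fits, against 2780 with all libraries. The number of calls thus depends on which libraries enter, among the 10 genes and among all genes alike.

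**Figure D1:**
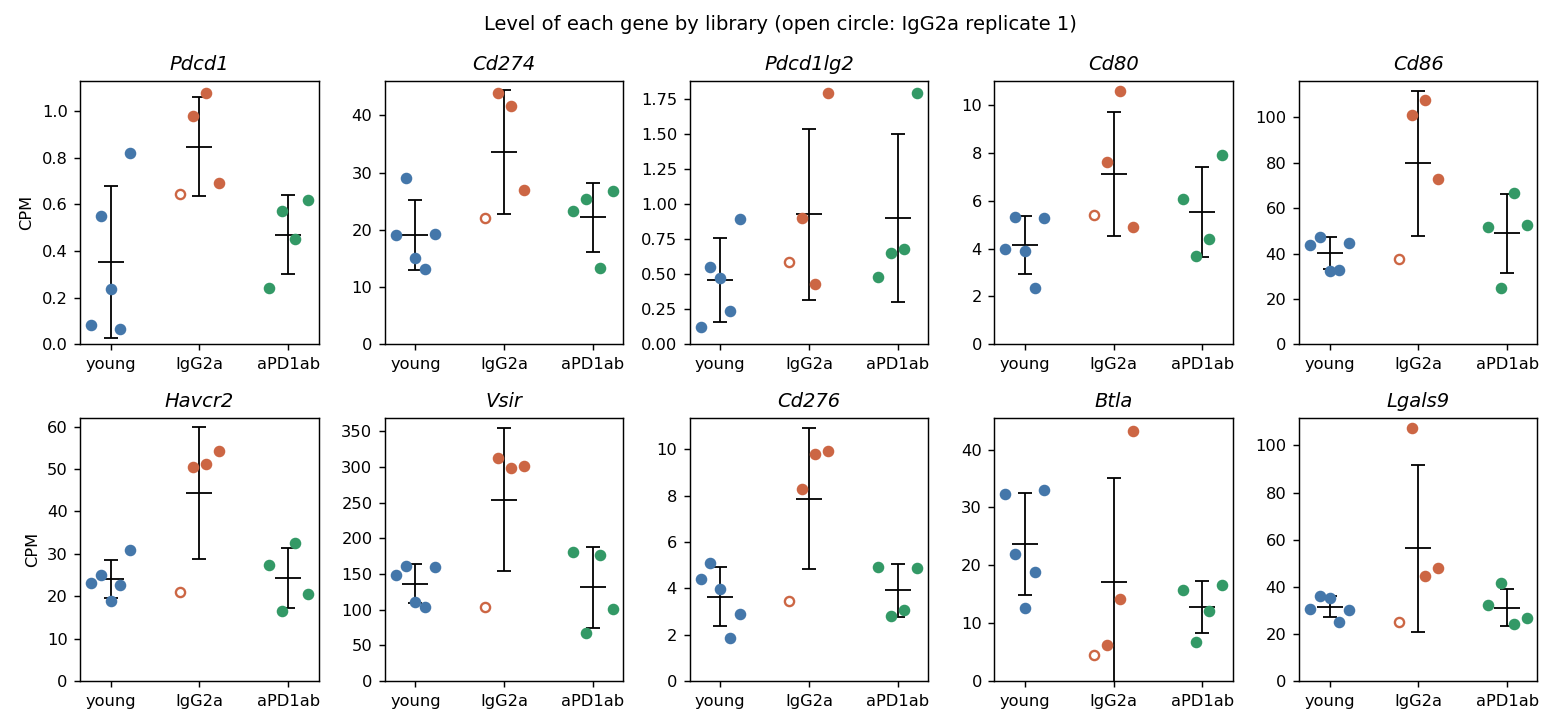
Level in CPM (counts scaled to library size) of each of the 10 genes in every podocyte fraction library, by group. Points are libraries (5 young, 4 IgG2a, 4 aPD1ab), bars are mean ± SD (cut at 0 for Btla), and the open circle is IgG2a replicate 1. For Vsir the 3 other IgG2a libraries lie between 298 and 313 CPM, above every young and aPD1ab library, while replicate 1 lies at 103.

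For Pdcd1 (ENSMUSG00000026285, chromosome 1, 94038305 to 94052553, minus strand), the target of the injected antibody, few reads were counted in any library, from 2 to 24. The young libraries held 0.0828, 0.549, 0.238, 0.0671 and 0.820 CPM. The IgG2a libraries held 0.644, 0.981, 1.08 and 0.691 CPM, and the aPD1ab libraries 0.240, 0.570, 0.453 and 0.618 CPM. In 2 young libraries the count was at or under 3, the floor used here, and the highest young library lay inside the IgG2a range. The log2 fold change with age was 1.31 (SE 0.62, edgeR adjusted p = 0.156, with 0.019 to 0.300 over 14 alternatives). Without replicate 1 it was 1.42 (SE 0.66, edgeR adjusted p = 0.101). All 14 alternatives gave a positive value, between 1.04 and 1.96, and 1 passed. At this depth a difference in Pdcd1 between aged and young mice was not established by the main test.

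For Cd274 (ENSMUSG00000016496), which encodes PD-L1, the young libraries held 19.1, 29.0, 15.0, 13.1 and 19.2 CPM and the IgG2a libraries 22, 44.0, 41.6 and 27.0 CPM. Of the IgG2a libraries, 2 lay above every young library and the other 2 within the young range. The mean rose from 19.1 ± 6.13 (SD, n = 5) to 33.6 ± 10.8 (SD, n = 4), a log2 fold change of 0.89 (SE 0.27, edgeR adjusted p = 0.0494, with 0.00384 to 0.148 over 14 alternatives, of which 4 passed). Without replicate 1 it was 1.03 (SE 0.26, edgeR adjusted p = 0.0108). An antisense gene, AC119228.1, overlaps exons of Cd274 in the annotation but is absent from the deposited counts. Its reads cannot be told apart from those of Cd274 if counting ignored strand. Pdcd1lg2 (ENSMUSG00000016498), which encodes PD-L2, held 0.124, 0.549, 0.476, 0.235 and 0.895 CPM in young mice and 0.586, 0.899, 0.431 and 1.80 CPM with IgG2a. These ranges overlapped, and the log2 fold change of 1.04 (SE 0.57, edgeR adjusted p = 0.216, and 0.125 without replicate 1) rested on 3 to 64 counts per library over all groups.

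Of the B7 ligands, Cd86 (ENSMUSG00000022901) held 43.6, 47.3, 32.3, 32.9 and 44.5 CPM in young mice and 37.4, 101, 108 and 72.9 CPM with IgG2a. All IgG2a libraries but replicate 1 were above the young range. This was a log2 fold change of 1.06 (SE 0.28, edgeR adjusted p = 0.0324, with 0.000177 to 0.0993 over 14 alternatives, of which 6 passed). Without replicate 1 it was 1.28 (SE 0.16, edgeR adjusted p = 0.000178) and the groups did not overlap. Cd80 (ENSMUSG00000075122) ranged from 2.35 to 5.31 CPM in young mice and from 4.90 to 10.6 with IgG2a, with a log2 fold change of 0.84 (SE 0.29, edgeR adjusted p = 0.0711). Without replicate 1, Cd80 passed the test (0.95, SE 0.29, edgeR adjusted p = 0.0231). The 2 groups overlapped for Cd80 with and without that library.

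TIM-3 and VISTA, both known from macrophages, had the tightest values within the IgG2a group once replicate 1 was set aside. Havcr2 (ENSMUSG00000020399, plus strand) held 23.2, 24.9, 18.8, 22.6 and 31.0 CPM in young mice and 21.0, 50.6, 51.3 and 54.4 CPM with IgG2a. Havcr2 thus had a log2 fold change of 0.95 (SE 0.26, edgeR adjusted p = 0.0373, with 6.84e-05 to 0.106 over 14 alternatives, of which 5 passed). Without replicate 1, whose level was within the young range, it was 1.17 (SE 0.13, edgeR adjusted p = 6.84e-05). Vsir (ENSMUSG00000020101, chromosome 10, 60346851 to 60372684, plus strand) held 148, 161, 111, 104 and 159 CPM in young mice and 103, 313, 298 and 301 CPM with IgG2a. Replicate 1 was just below the lowest young library and the other 3 were above the highest. For Vsir, edgeR gave 0.97 (SE 0.31, edgeR adjusted p = 0.0550) with all 4 IgG2a libraries and 1.21 (SE 0.15, edgeR adjusted p = 0.000122) with 3.

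Cd276 (ENSMUSG00000035914, chromosome 9, 58524298 to 58555437, minus strand) was lower in level but moved alike, with 4.39, 5.09, 3.97, 1.84 and 2.91 CPM in young mice and 3.46, 8.30, 9.80 and 9.95 CPM with IgG2a. Its log2 fold change was 1.17 (SE 0.36, edgeR adjusted p = 0.0509), and 1.41 (SE 0.27, edgeR adjusted p = 0.00192) without replicate 1. Gm10657, a gene antisense to Cd276, held 0 to 6 counts. Lgals9 (ENSMUSG00000001123) ranged from 25.0 to 36.1 CPM in young mice, and the IgG2a libraries held 24.9, 107, 44.7 and 47.9 CPM. The log2 fold change of Lgals9 was 0.91 (SE 0.35, edgeR adjusted p = 0.0936), and leaving out a library or changing the test moved it between 0.37 and 1.14. Lgals9 passed the test without replicate 1 (1.14, SE 0.28, edgeR adjusted p = 0.0109) and in 1 other alternative, voom with quality weights (adjusted p = 0.0132).

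Btla (ENSMUSG00000052013) was the only gene of the 10 with a negative log2 fold change in this comparison. It held 32.4, 21.9, 12.6, 18.8 and 32.97 CPM in young mice and 4.51, 6.29, 14.1 and 43.3 CPM with IgG2a. The IgG2a group thus contained both the lowest and the highest Btla library of the 2 groups. The log2 fold change was -0.42 (SE 0.60, edgeR adjusted p = 0.643) and lay between -1.48 and -0.13 over 14 alternatives, none of which passed the test. Without replicate 1, 5 of the 10 genes did not overlap between aged IgG2a and young mice (Cd86, Havcr2, Vsir, Cd276 and Lgals9, all higher with IgG2a), where 19.4% of all genes were higher without overlap. With all libraries 0 of 10 did, where 4.75% of all genes did.

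**Figure D2:**
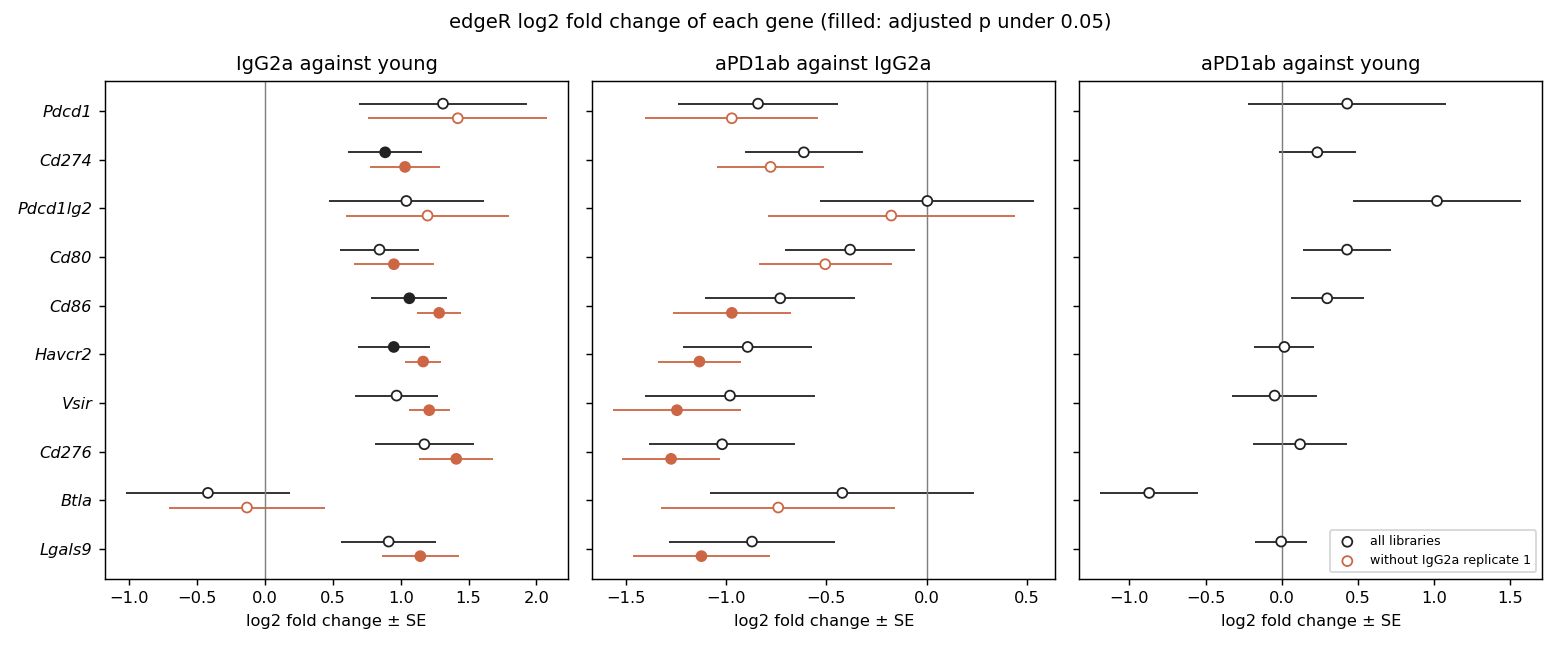
edgeR log2 fold change ± SE of each gene (horizontal axis) in the 3 comparisons, over all libraries (black) and without IgG2a replicate 1 (orange). Filled points have an adjusted p under 0.05: 3 of 10 against 7 of 10 for IgG2a against young, and 0 of 10 against 5 of 10 for aPD1ab against IgG2a.

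To ask whether neutralization of PD-1 altered these genes in aged mice, aPD1ab-injected were compared with IgG2a-injected mice. Over all libraries, 9 of the 10 genes had negative log2 fold changes with aPD1ab, as had 50.9% of all genes, with a median log2 fold change of -0.79 against -0.011 for all genes, and 0 of 10 passed the test. The test had no call among all 15530 genes either (0% called, lowest edgeR adjusted p over the 10 genes 0.129), although 28.0% of genes, 12.2% in the downward direction, and 3 of the 10 genes (Cd276, Havcr2 and Vsir) had an unadjusted p under 0.05. DESeq2 called 1 of the 10 genes, a single edgeR fit of all 3 groups called 1, and limma voom with quality weights, which gives less weight to a library that stands apart, called 6, where they called 15.3%, 17.5% and 39.7% of all genes. Without IgG2a replicate 1, edgeR called 5 of the 10 genes, all lower with aPD1ab, where 30.4% of all genes were called and 13.2% were called lower. Whether that library or the other 3 better represent the IgG2a group was not tested.

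Pdcd1 was the only gene of the 10 whose groups did not overlap over all libraries: each of the 4 aPD1ab libraries, at most 0.618 CPM, lay below each IgG2a library, at least 0.644 CPM. Of all genes, 4.73% were lower without overlap. The gap between the groups was small, and the counts behind it were 10 to 24 with IgG2a and 6 to 22 with aPD1ab. The log2 fold change was -0.84 (SE 0.40, edgeR adjusted p = 0.202, with 0.0602 to 0.406 over 13 alternatives). Cd274 held 23.2, 25.4, 13.4 and 26.8 CPM with aPD1ab, a log2 fold change of -0.61 (SE 0.29, edgeR adjusted p = 0.206), and 1 of 13 alternatives passed. Without replicate 1, Cd274 did not pass (-0.78, SE 0.27, edgeR adjusted p = 0.0593), and every aPD1ab library was below every IgG2a library, if only by the margin between 26.8 and 27.0 CPM. Pdcd1lg2 held 0.480, 0.651, 0.680 and 1.80 CPM with aPD1ab, a log2 fold change of 0.0036 (SE 0.53, edgeR adjusted p = 0.997). The sign of the Pdcd1lg2 value turned in 7 of 13 alternatives, and the estimate moved between -0.60 and 0.51.

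Among the B7 ligands, Cd86 held 51.8, 24.9, 66.7 and 52.5 CPM with aPD1ab, which gave a log2 fold change of -0.73 (SE 0.37, edgeR adjusted p = 0.231) over all libraries and -0.97 (SE 0.29, edgeR adjusted p = 0.0395) without replicate 1. Cd80 ranged from 3.70 to 7.92 CPM, with a log2 fold change of -0.38 (SE 0.32, edgeR adjusted p = 0.454), and no alternative passed. The 2 B7 ligands had the same sign throughout the alternatives.

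Havcr2 held 27.3, 16.6, 32.6 and 20.6 CPM with aPD1ab, below 3 of 4 IgG2a libraries and around replicate 1. Its log2 fold change was -0.89 (SE 0.32, edgeR adjusted p = 0.131) and, without replicate 1, -1.13 (SE 0.21, edgeR adjusted p = 0.00866). Vsir held 181, 66.5, 177 and 100.5 CPM with aPD1ab, which spread more than in young mice. For Vsir the values were -0.98 (SE 0.42, edgeR adjusted p = 0.172) and -1.25 (SE 0.32, edgeR adjusted p = 0.0230). Cd276 held 4.92, 2.81, 3.06 and 4.86 CPM and gave -1.02 (SE 0.36, edgeR adjusted p = 0.129) and -1.28 (SE 0.24, edgeR adjusted p = 0.00974). Lgals9 held 32.4, 41.5, 24.1 and 26.6 CPM and gave -0.87 (SE 0.42, edgeR adjusted p = 0.206) and -1.12 (SE 0.34, edgeR adjusted p = 0.0406). Without replicate 1, 7 of the 10 genes were lower with aPD1ab without overlap of the groups, where 18.5% of all genes were. Btla held 15.7, 6.75, 12.1 and 16.7 CPM with aPD1ab, and its log2 fold change of -0.42 (SE 0.66, edgeR adjusted p = 0.703) turned to 0.63 without IgG2a replicate 4, the library with 43.3 CPM.

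Aged aPD1ab-injected mice were then set beside young mice, a comparison that shares libraries with both of the others. Of the 10 genes, 0 passed the edgeR test, where 22.4% of 15986 genes did. An unadjusted p under 0.05 was found for 1 of the 10 (Btla) and for 36.9% of all genes, and DESeq2 called 1 (Btla), where it called 28.9% of all genes. The median log2 fold change was 0.18 over the 10 genes and 0.017 over all genes. Havcr2, Vsir, Cd276 and Lgals9 were close to the young level, with log2 fold changes of 0.017 (SE 0.20), -0.047 (SE 0.28), 0.12 (SE 0.31) and -0.0044 (SE 0.17), and all 4 changed sign in some alternatives. The ligand Pdcd1lg2 had the highest value, 1.02 (SE 0.55, edgeR adjusted p = 0.208), in which aPD1ab replicate 4 held 1.80 CPM and the other 3 libraries at most 0.680. Btla had the lowest, -0.87 (SE 0.32, edgeR adjusted p = 0.0762, with 0.0294 to 0.298 over 14 alternatives, of which 2 passed). The young and aPD1ab ranges of Btla, 12.6 to 32.97 and 6.75 to 16.7 CPM, overlapped.

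IgG2a replicate 1 was below the other 3 IgG2a libraries for 8 of the 10 genes, all except Cd80 and Pdcd1lg2. It fell within the range of the young libraries for 6 genes and of the aPD1ab libraries for 8. The markers of other cells moved in the same libraries. Of 10 leukocyte markers (Ptprc, Coro1a, Laptm5 and others), the summed level was 1236 to 2089 CPM in young mice, 1306 in IgG2a replicate 1 and 3411 to 3871 in the other IgG2a libraries, and 1071 to 2202 with aPD1ab. The 11 macrophage markers summed to 1428 to 2512, 2106 to 6857 and 1563 to 3755 CPM in young, IgG2a and aPD1ab mice, and the 10 T cell markers to 5.10 to 13.1, 8.41 to 37.9 and 6.71 to 20.7 CPM. Proximal tubule markers ran the other way, at 7051 to 11152 CPM in young mice, 5040 in IgG2a replicate 1, 954 to 1483 in the other IgG2a libraries and 4971 to 14884 with aPD1ab. No marker of these lists was at 0 throughout a group. Single markers were called too. For IgG2a against young, 9 of 11 macrophage markers and 5 of 10 leukocyte markers were higher, where 9.05% of all genes were. Called lower were 10 of 10 proximal tubule markers and 7 of 10 podocyte markers (1 was higher), where 8.38% of all genes were. Without replicate 1, 10 of 11 macrophage and 10 of 10 leukocyte markers were called higher, against 22.1% of all genes. The proximal tubule and podocyte counts were unchanged, against 23.5% of all genes called lower. For aPD1ab against IgG2a, no marker was called over all libraries. Without replicate 1, 11 of 11 macrophage and 9 of 10 leukocyte markers were called lower, against 13.2% of all genes. Called higher were 10 of 10 proximal tubule and 4 of 10 podocyte markers (1 was lower), against 17.1% of all genes. Of 27 exact permutation tests (two-sided, 9 marker lists and 3 comparisons), 7 had an unadjusted p under 0.05 and none passed adjustment, the lowest adjusted p being 0.0714. The smallest p these group sizes allow is 0.0159 for 4 against 5 libraries and 0.0286 for 4 against 4. The part that cell makeup has in the results above was not tested.

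**Figure D3:**
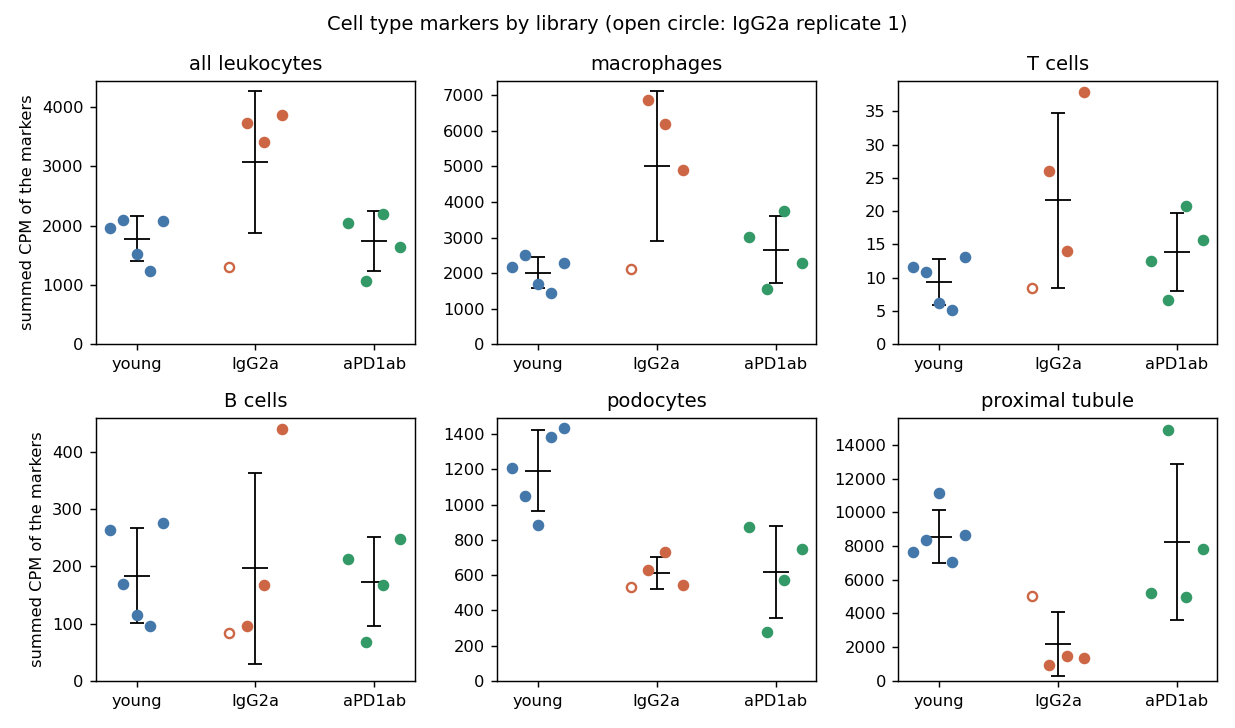
Summed CPM of cell type markers in each library, by group, with mean ± SD and with IgG2a replicate 1 as an open circle. The other 3 IgG2a libraries lie between 3411 and 3871 CPM of leukocyte markers, while replicate 1, at 1306 CPM, lies in the range of the young and aPD1ab libraries.

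The level of each gene was also expressed per 1000 CPM of the summed leukocyte markers, an alternative chosen after seeing the data. On this scale Vsir was nearly level across all libraries. Its CPM spanned a 4.70-fold range over 13 libraries and its ratio to leukocyte markers a 1.44-fold range, from 61.6 to 88.6. Havcr2 went from a 3.28-fold to a 1.54-fold range, Cd86 from a 4.32-fold to a 1.71-fold range and Cd276 from a 5.39-fold to a 2.14-fold range. The SD of the log2 values fell from 0.69 to 0.16 for Vsir, from 0.57 to 0.18 for Havcr2, from 0.63 to 0.24 for Cd86 and from 0.73 to 0.39 for Cd276. The ratio and the level share the library, so these are descriptions.

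For the remaining genes the SD was lowered less, and the fold range widened for Cd274 (from 3.35 to 3.90), Pdcd1lg2 (from 14.5 to 17.3) and Btla (from 9.60 to 9.81). It narrowed for Cd80 (from 4.52 to 3.83), Lgals9 (from 4.45 to 3.54) and Pdcd1 (from 16.1 to 12.6). The SD of the log2 values went from 0.55 to 0.53 for Cd274, from 0.56 to 0.52 for Cd80, from 0.58 to 0.50 for Lgals9, from 0.97 to 0.97 for Btla, from 1.05 to 1.03 for Pdcd1lg2 and from 1.28 to 1.14 for Pdcd1. The SD was thus lower for all 10 genes, by widely different amounts and hardly for Cd274, Pdcd1lg2 and Btla. Per macrophage marker it was lower for 7 of 10 genes, per dendritic cell marker for 5 and per B cell marker for 1 (Btla). The share of all genes whose SD falls on these scales was not computed.

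**Figure D4:**
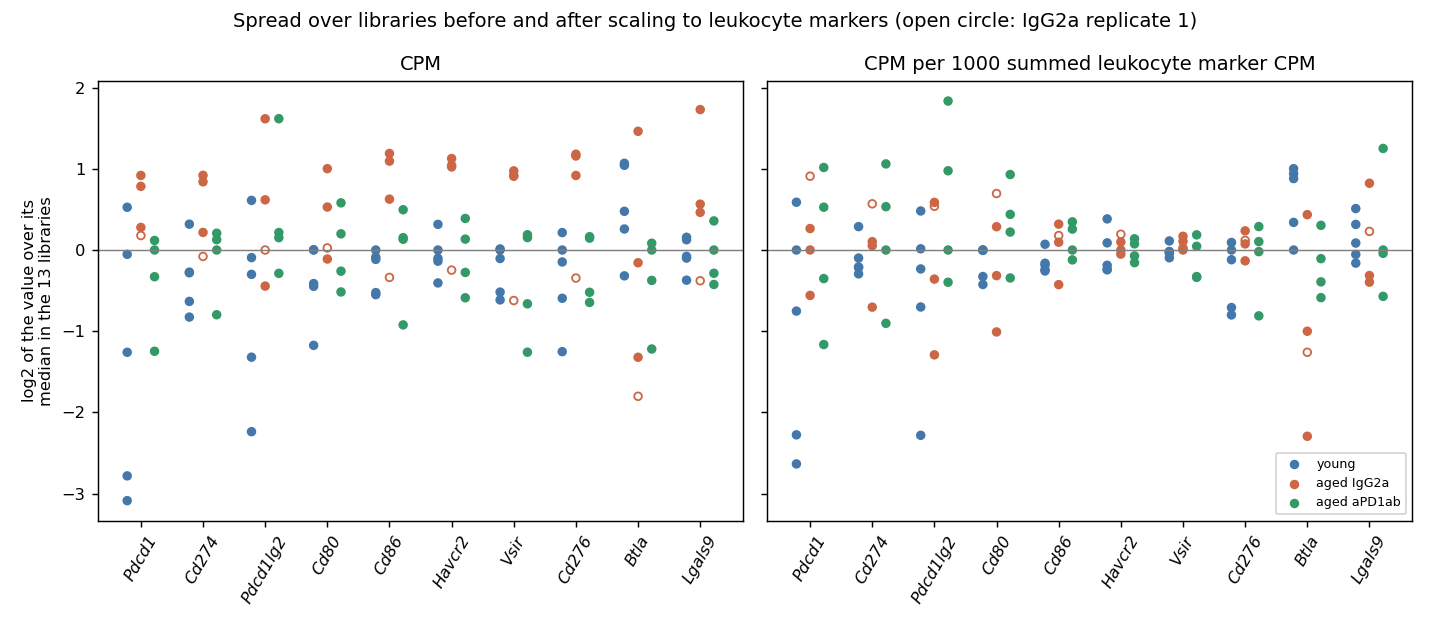
log2 of each gene's value over its median in the 13 libraries, as CPM (left) and per 1000 summed CPM of leukocyte markers (right). Points are libraries coloured by group, with IgG2a replicate 1 open. Vsir, Havcr2 and Cd86 draw together on the right (SD 0.16, 0.18 and 0.24), while Pdcd1, Pdcd1lg2 and Btla stay spread.

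Per leukocyte marker, IgG2a and young mice differed in log2 mean by 0.088 for Vsir (exact permutation p = 0.111), 0.100 for Havcr2 (exact permutation p = 0.508) and 0.197 for Cd86 (exact permutation p = 0.238). For Cd274 the difference was 0.111 (exact permutation p = 0.698), and for Pdcd1 it was 1.17 (exact permutation p = 0.191). For aPD1ab against IgG2a it was -0.183 for Vsir (exact permutation p = 0.343), -0.064 for Havcr2 (exact permutation p = 0.486) and 0.079 for Cd86 (exact permutation p = 0.743). Over 120 such tests (10 genes, 4 marker lists, 3 comparisons), 20 had an unadjusted p under 0.05 and none passed Benjamini-Hochberg adjustment, the lowest adjusted p being 0.147. These tests do not show that the ratios were equal.

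Against macrophage markers, Vsir was lower in both aged groups than in young mice without overlap, with log2 differences of -0.424 for IgG2a and -0.505 for aPD1ab (exact permutation p = 0.0159 each, adjusted p = 0.147). Against dendritic cell markers the direction was the opposite: Vsir, Havcr2, Cd86 and Cd276 were higher with IgG2a than in young mice without overlap, with log2 differences of 0.66, 0.67, 0.77 and 0.95 (exact permutation p = 0.0159 each, adjusted p = 0.147). For aPD1ab against young, Havcr2 (0.67), Cd86 (0.91) and Cd80 (1.10) were also higher per dendritic cell marker without overlap, at the same p. Of the 13 ratios without overlap among the 120 tests, 7 were per dendritic cell marker, 4 per macrophage marker and 2 per B cell marker. The direction for Vsir thus differed with the marker list. How many of all genes have ratios to these lists without overlap was not computed, so these counts have no background. The dendritic cell markers themselves differed in log2 sum by 0.13 between IgG2a and young mice. As a mean of log2(CPM + 1) that difference was -0.24. Between aPD1ab and young mice, the log2 sum of the dendritic cell markers differed by -0.69 (exact permutation p = 0.0794, adjusted p = 0.195). In that comparison the edgeR log2 fold changes of Havcr2, Cd86 and Cd80 themselves were 0.017, 0.30 and 0.43, and none passed the test. Against B cell markers, Btla was lower in both aged groups without overlap, although the test did not pass adjustment. It stood at 110 to 196 CPM per 1000 B cell marker CPM in young mice, 54.0 to 98.7 with IgG2a and 67.3 to 99.8 with aPD1ab. The young libraries lay above all 8 aged libraries, IgG2a replicates 1 and 4 included. The log2 differences from young were -0.84 with IgG2a and -0.77 with aPD1ab (exact permutation p = 0.0159 each, the smallest these group sizes allow, adjusted p = 0.147 over 120 tests). B cell markers themselves ranged from 96.0 to 275 CPM summed in young mice, from 83.6 to 439 with IgG2a and from 67.7 to 247 with aPD1ab, and the IgG2a library with the highest Btla level was also the one with the most B cell marker CPM.

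**Figure D5:**
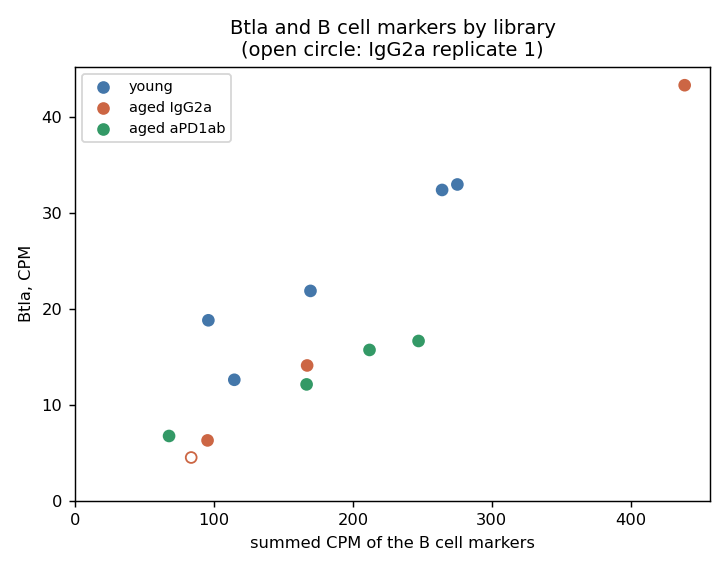
Btla in CPM (vertical) against the summed CPM of 10 B cell markers (horizontal) in the 13 libraries, coloured by group, with IgG2a replicate 1 open. Btla per 1000 B cell marker CPM is 110 to 196 in the 5 young libraries and 54.0 to 99.8 in the 8 aged libraries.

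Other genes of the same layer were read from lists, which were chosen with earlier results of these data known. Of 40 other checkpoint and costimulation receptors and ligands, 32 were tested for IgG2a against young, of which 7 were called higher and 3 lower, with a median log2 fold change of 0.55. All genes had 9.05% called higher and 8.38% called lower in that fit. Without replicate 1, 15 of 33 were called higher and 4 lower, where 22.1% and 23.5% of all genes were. Sirpa, a myeloid receptor for the signal of CD47, rose by 1.29 (SE 0.30, edgeR adjusted p = 0.0231) and Cd48, a ligand of lymphocyte receptors, by 1.22 (SE 0.30, edgeR adjusted p = 0.0275). Lgals3, a macrophage galectin, rose by 1.40 (SE 0.20, edgeR adjusted p = 0.00476). Nt5e, the ectoenzyme that forms adenosine and is also found in proximal tubule, fell by 1.34 on the log2 scale (SE 0.33, edgeR adjusted p = 0.0274). Without replicate 1, these 4 values were 1.52, 1.45, 1.55 and -1.71 and all 4 calls held (edgeR adjusted p = 6.26e-05, 0.000271, 1.08e-05 and 0.00234). Icosl and Selplg had values of 0.75 and 1.04 without passing (edgeR adjusted p = 0.115 and 0.0625), and passed without replicate 1 (1.003 and 1.29, edgeR adjusted p = 0.000172 and 0.000398). For aPD1ab against IgG2a, 0 of 32 were called over all libraries, and without replicate 1 edgeR called 3 of 33 higher and 10 lower, where 17.1% and 13.2% of all genes were.

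Of 29 genes of PD-1 signaling in T cells, 27 were tested, with a median log2 fold change of 0.88 for IgG2a against young. Called higher were 8 of them, where 9.05% of all genes were. Without replicate 1, 19 were called higher and 2 lower, where 22.1% and 23.5% of all genes were. Among the 5 with the highest mean CPM, Akt1 (0.51, SE 0.13) and Csk (0.88, SE 0.24) were called higher (edgeR adjusted p = 0.0311 and 0.0375). These calls held without replicate 1 (0.60 and 1.07, edgeR adjusted p = 0.000205 and 0.0001). Pik3cd had 0.91 and, without replicate 1, 1.15 (edgeR adjusted p = 0.0674 and 0.0002). Of the phosphatases that PD-1 recruits, Ptpn6, the SHP-1 gene of hematopoietic cells, had a log2 fold change of 0.88 (SE 0.29, edgeR adjusted p = 0.0635). Ptpn11, the widely expressed SHP-2 gene, had -0.14 (SE 0.094, edgeR adjusted p = 0.298). Without replicate 1, Ptpn6 passed (1.11, SE 0.16, edgeR adjusted p = 0.000392) and Ptpn11 did not (-0.20, SE 0.082, edgeR adjusted p = 0.0731), and the difference between these genes was not tested. With aPD1ab against IgG2a, 0 of 27 were called over all libraries and 13, all lower, without replicate 1, where 13.2% of all genes were called lower. Of 21 genes of interferon-gamma signaling and PD-L1 regulation, 5 were called higher with IgG2a than in young mice, against 9.05% of all genes. Without replicate 1, 11 were called higher and 2 lower, against 22.1% and 23.5% of all genes. With aPD1ab against IgG2a, 0 of these 21 were called over all libraries. Without replicate 1, 2 were called higher and 7 lower, against 17.1% and 13.2% of all genes. Irf1, a factor that induces Cd274, was not called, at 228 ± 31.0 CPM (SD, n = 5) in young mice and 268 ± 107 (SD, n = 4) with IgG2a (log2 fold change 0.30, SE 0.28, edgeR adjusted p = 0.462, and 0.537 without replicate 1). Stat3 rose by 0.35 (SE 0.100, edgeR adjusted p = 0.0396, and 0.0162 without replicate 1). Cmtm6, which protects PD-L1 from degradation, had -0.30 (SE 0.11, edgeR adjusted p = 0.0769), and was called lower without replicate 1 (-0.31, SE 0.097, edgeR adjusted p = 0.0218).

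By Pearson's r of log2 CPM over 13 libraries among 16567 genes, Cd274 was most like Emd (0.897), Gins2 (0.892) and Mnt (0.876). Pdcd1 was most like Gm22355 (0.911), Nup54 (0.862) and Gm15344 (0.844), and Pdcd1lg2 most like Rpl21-ps11 (0.879), Nup54 (0.849) and Wdr53 (0.835). The libraries share group and depth, and the values of Pdcd1 and Pdcd1lg2 rest on few counts, so these are descriptions of likeness alone.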

How the data were processed

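Podocyte fractions were sequenced as bulk mRNA libraries, and the authors deposited raw counts of reads per Ensembl gene (46078 genes, whole numbers without normalization). The submitters' processing notes name HISAT2, featureCounts and the mouse build mm10/GRCm38; versions and the strand setting are not given in the sources used here. Columns were tied to groups by the numbers printed in the podocyte principal component plot of the study (13 of 15 columns), and 2 columns were not used. Nothing tied columns to single samples, so replicates are numbered within a group by column order, and p-values measure the spread between these libraries. No 2 libraries were identical. Symbols and positions are from GENCODE M21 for 45229 genes, and promoter sequences from RefSeq.

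Groups were compared in pairs by edgeR 4.0.16 in R 4.3.3 (robust quasi-likelihood test, TMM, filterByExpr), adjusted by Benjamini-Hochberg over all genes tested and a call at an adjusted p under 0.05. The fits were tested on simulated data. Marker sums and ratios used two-sided exact permutation tests (scipy 1.17.1). Alternatives were RLE size factors, DESeq2 1.42.0, voom with quality weights (limma 3.58.1), no filter, 1 fit of 3 groups, and leaving out each library. The 10 genes and all lists were chosen with earlier results of these data known. Named genes were the 10 genes, the 10 with the highest mean CPM of the other checkpoint list, 5 of each signaling list and 2 of each of 9 marker lists, of which the text gives a part, and the 3 genes most alike to Pdcd1, Cd274 and Pdcd1lg2 among those with at least 10 counts in at least 4 libraries (log2 CPM with a prior count of 2). Lists for dendritic, endothelial and mesangial cells entered the marker tests.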

Additional observations from a re-analysis of the deposited data

Results flagged for a closer look

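Of 57 groups of 4 or 5 libraries examined, 4 held a library far from the others, where chance flags about 1 in 20 groups. The groups reuse the same libraries and are not independent, so the 4 flags are not read as an excess over chance. In the aPD1ab group, Pdcd1lg2 was highest in replicate 4, at 1.80 CPM, with the nearest library at 0.680 CPM. In the IgG2a group, replicate 1 was the library set apart in the 3 other cases. It was lowest for Havcr2, at 21.0 CPM against 50.6 for the nearest library, and lowest for Vsir, at 103 CPM against 298. It was highest for the summed proximal tubule markers, at 5040 CPM against 1483.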

How the results depend on the processing

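For IgG2a against young, 3 of the 10 genes and 2780 of all genes were called. DESeq2 called 6 and 4455, and voom with quality weights 8 and 7423. With no filter, edgeR called 1 of the 10 genes, and it also called fewer than 2780 of all genes. Leaving out a library gave 0 to 7 of the 10 genes and 553 to 7397 of all genes, the upper ends without IgG2a replicate 1 (7 and 7397). For aPD1ab against IgG2a, 0 and 0 were called, against 1 and 2373 by DESeq2, 6 and 6160 by voom, 1 and 2863 in a fit of all 3 groups, and 0 to 5 and 0 to 4788 when a library was left out, with calls only without IgG2a replicate 1 (5 and 4788). For aPD1ab against young, DESeq2 called 1 of the 10 genes, and leaving out a library gave 0 or 1 and 2369 to 3868 of all genes, the lowest without aPD1ab replicate 4. The cause of these differences was not tested. No paired analysis was possible because the labels give no replicate numbers shared between groups and the columns carry none.

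The following log2 values changed sign. For aPD1ab against IgG2a, Pdcd1lg2 turned to -0.015 with RLE size factors, -0.032 with DESeq2 and -0.019 without the filter, and ranged from -0.60 to 0.51 over left-out libraries, and Btla turned to 0.21 with voom and ranged from -0.74 to 0.63. For aPD1ab against young, Havcr2 turned to -0.031 with voom and ranged from -0.15 to 0.16 over left-out libraries, Vsir from -0.25 to 0.17, Cd276 from -0.058 to 0.27 and Lgals9 from -0.17 to 0.096. Among summed marker lists, taking the mean of log2(CPM + 1) turned the dendritic cell list to -0.24 for IgG2a against young and the podocyte list to 0.53 for aPD1ab against IgG2a. Over left-out libraries, leukocyte markers ranged from -0.19 to 0.16 for aPD1ab against young. B cell markers ranged from -0.61 to 0.18 for IgG2a against young, from -0.33 to 0.29 for aPD1ab against young and from -0.29 to 0.50 for aPD1ab against IgG2a. Dendritic cell markers ranged from -0.038 to 0.52 for IgG2a against young, podocyte markers from -0.30 to 0.25 and endothelial markers from -0.31 to 0.14 for aPD1ab against IgG2a, and proximal tubule markers from -0.53 to 0.0006 for aPD1ab against young. No other edgeR log2 fold change of the 10 genes and no other summed marker list changed direction under these alternatives. Ratios of the 10 genes to marker lists, added after seeing the data, also changed sign, for example Cd274 per leukocyte marker for IgG2a against young (from -0.077 to 0.35 over left-out libraries) and Cd86 per leukocyte marker for aPD1ab against IgG2a (from -0.077 to 0.17). Pdcd1 and Pdcd1lg2, at 2 to 64 counts, are limited by depth.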
